A study of Mus musculus with 9 samples.

Results

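Col1a1, Col1a2, Col3a1, Col4a1, Dcn, Reln, Colec11, Acta2, Timp1 and Tgfb1 are 10 genes used to follow hepatic stellate cells and liver fibrosis, and their levels were measured in mouse liver under a control diet, under alcohol and under alcohol with a compound labelled MNA. Their rows were found by gene symbol, taking each row of the deposited gene table that carried one of the symbols, and the genes themselves were picked with earlier results of these data known. This gave 12 entries for the 10 genes, of 52151 entries in the table. Of all entries, 26345 hold a known transcript and a gene name, and those were used. Each gene has 1 main entry, and both Col3a1 and Reln have a further, minor one.

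Pair-fed mice (PF) received an isocaloric control liquid diet, alcohol-fed mice (AF) received a Lieber-DeCarli diet containing alcohol, and AF with MNA mice received the alcohol diet and MNA by daily intraperitoneal injection at 50 mg/kg. Feeding lasted 5 weeks, the labels give an age of 8 weeks, and each group has 3 liver libraries. The strain is labelled C57BL/6 in PF and AF, while for the 3 AF with MNA samples it reads C57BL/7, C57BL/8 and C57BL/9, and the labels do not spell out what MNA is. The methods describe male mice fasted before the livers were taken, with 6 animals in the PF and AF groups, without saying which animals the 3 libraries came from. The spread between libraries may therefore hold technical as well as animal differences.

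Hepatic stellate cells lie between the hepatocytes and the sinusoidal endothelium, where they store vitamin A in the quiescent state. When the liver is injured, TGF-beta, encoded by Tgfb1, is a main signal that turns them into contractile myofibroblasts, which carry smooth muscle actin (Acta2), secrete fibrillar collagens (Col1a1, Col1a2, Col3a1) and make Timp1, an inhibitor of the proteases that degrade collagen. Reln, Colec11 and Dcn are genes that quiescent stellate cells of mouse liver carry at high levels, and Col4a1 belongs to the basement membrane, which endothelial cells make as well.

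No member differed between groups past the threshold of the methods, which is stated there for lncRNAs tested with Ballgown, was applied here to genes tested with limma, and asks for an unadjusted p under 0.05 together with a log2 ratio between the mean FPKMs of the groups that is larger than 1 in either direction. FPKM counts fragments relative to transcript length and to the depth of the library, so levels may be compared between genes. Timp1 lay below the minimum mean of 0.5 FPKM and was not tested. With limma on log2(FPKM + 1), 0 of the 9 tested members passed in AF against PF, and 3 had an unadjusted p under 0.05: Col4a1 and Col1a1, higher in AF, and Reln, lower. Among the 12268 entries tested, 4.3% passed the threshold of the methods, 0.326% had an adjusted p under 0.05 and 11.7% had an unadjusted p under 0.05, 5.1% with a higher and 6.58% with a lower mean in AF. The 3 libraries of each group did not overlap for 4 members, Col1a1, Col1a2 and Col4a1 (higher in AF) and Col3a1 (lower), against 18.3% of all entries. In AF with MNA against AF, 0 of 9 members passed by limma, and Col4a1 alone had an unadjusted p under 0.05 and groups that did not overlap. The shares over all 12214 entries of that comparison were 1.98% past the threshold, 0.0491% with an adjusted p under 0.05, 5.22% with an unadjusted p under 0.05 (2.91% higher, 2.3% lower) and 10.1% without overlap. In AF with MNA against PF, 0 of 9 passed by limma, while Col3a1 (lower) and Col4a1 (higher) had an unadjusted p under 0.05 and groups that did not overlap. The shares there, over 12276 entries, were 3.89% past the threshold, 0.432% with an adjusted p under 0.05, 14.5% with an unadjusted p under 0.05 (6.52% higher, 7.94% lower) and 21.4% without overlap. The 3 comparisons share libraries, so they are not independent of one another. Leaving out 1 library brought at most 1 member past the threshold in each comparison, and these were Col1a1, Col4a1 and Colec11. An exact permutation test of 3 against 3 libraries cannot give a p under 0.1.

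**Figure D1:**
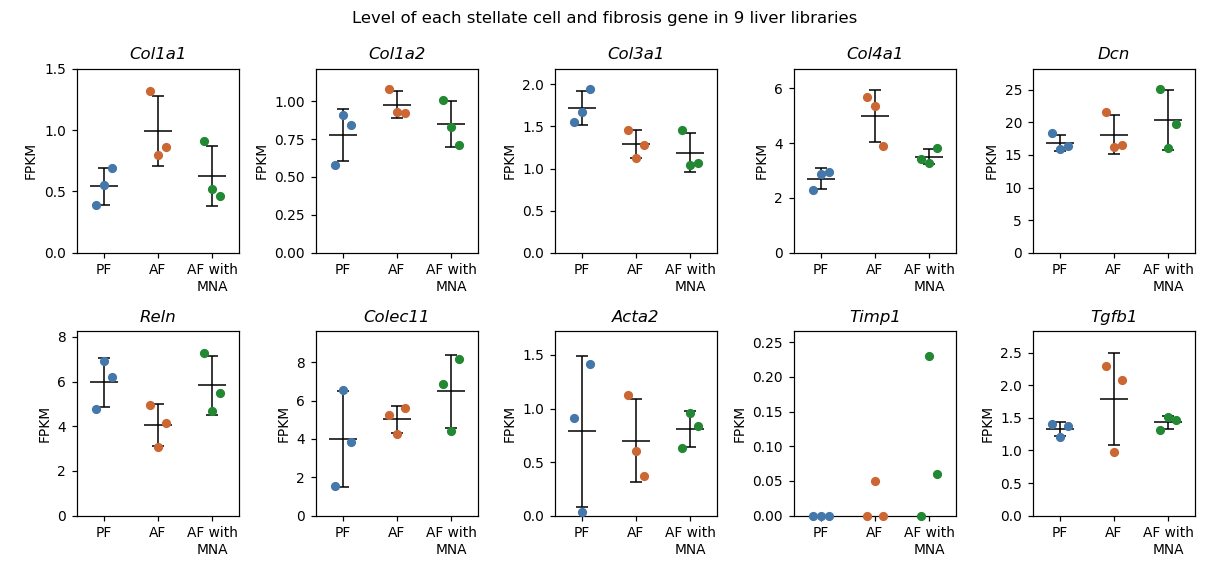
Level in FPKM of each of the 10 genes in the 9 libraries, with PF in blue, AF in orange and AF with MNA in green. Points are libraries, and bars give the mean and SD of 3 libraries except for Timp1, which is listed at 0 in 6 of 9 libraries; the AF points lie above the PF points for Col1a1, Col1a2 and Col4a1 and below them for Col3a1.

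**Figure D2:**
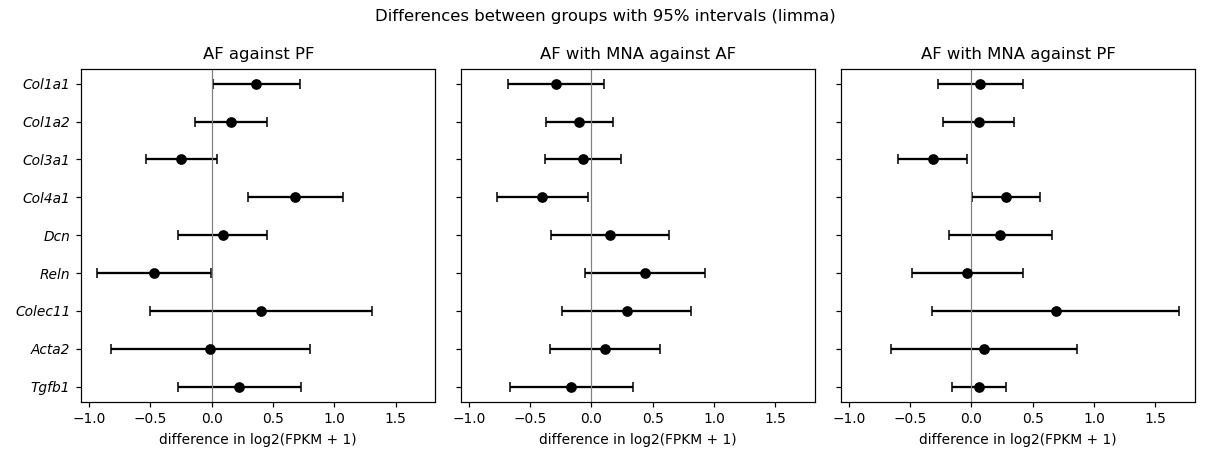
Difference in log2(FPKM + 1) between groups from limma, with its 95% interval, for the 9 members tested. In AF against PF the interval lies above 0 for Col1a1 (0.0088 to 0.72) and Col4a1 (0.29 to 1.07) and below 0 for Reln (-0.93 to -0.0043), and no adjusted p is under 0.05.

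The promoter sequences of Col3a1 and Reln are shown because, apart from Acta2, these were the members with a lower mean in AF than in PF, and because their composition is at opposite ends of the set. Promoters of 8 members were matched in the RefSeq table of build GRCm38.p6, without Col1a1 and Dcn. Each run gives the 150 bases before the RefSeq start, 5′ to 3′ on the gene's strand, for Col3a1 at chr1:45311388-45311537 (plus strand) and for Reln at chr5:22344706-22344855 (minus strand). Capitals mark TATAAA in Col3a1 and GGGCGG in Reln.
Col3a1: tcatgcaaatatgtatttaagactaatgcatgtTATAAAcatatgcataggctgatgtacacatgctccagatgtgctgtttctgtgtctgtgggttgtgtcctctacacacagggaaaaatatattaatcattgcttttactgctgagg
Reln: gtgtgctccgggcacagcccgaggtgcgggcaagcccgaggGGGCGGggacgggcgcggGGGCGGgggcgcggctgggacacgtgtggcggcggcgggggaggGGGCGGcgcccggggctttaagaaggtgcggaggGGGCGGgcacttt

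The Col3a1 window held 37.3% G and C and the Reln window 80%, against a median of 54% over 32851 RefSeq promoters of the same length. TATAAA was sought on both strands and occurred in 7.57% of those promoters, and in Col3a1 it lay 117 to 112 bases before the start. GGGCGG occurred in 28.6% of the promoters, 4 times in Reln, 4 times in Tgfb1 and 1 time in Timp1. CCAAT, present in 24.5% of the promoters, occurred in Col1a2 and Col4a1, and TGANTCA, present in 4.24%, occurred in no member. Acta2 held 2 runs that differ by 1 letter from the CArG box, the binding motif of serum response factor, and are shown because that factor is known for driving smooth muscle genes.
Acta2, 84 to 75 bases before the start: CCCTATATGG
Acta2, 34 to 25 bases before the start: CCTTGTTTGG
A CArG box with 1 letter off occurred in 4.22% of all promoters and an exact one in 0.916%. The windows of Col1a2, Col4a1, Colec11 and Acta2 each overlapped 1 annotated exon. For Acta2 the RefSeq start, chr19:34255373, lies inside the annotated gene (chr19:34241090-34255590), and so does its whole window. A match of letters is a description of the window and shows no binding.

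Col1a1 and Col1a2 encode the 2 kinds of chain of type I collagen, the main fibrillar collagen of scar tissue. Col1a1 (GRCm38 chr11:94936224-94953042, plus strand) measured 0.39, 0.55 and 0.69 FPKM in PF, 1.32, 0.80 and 0.86 FPKM in AF, and 0.91, 0.52 and 0.46 FPKM in AF with MNA. Every AF library lay above every PF library, and the AF with MNA libraries overlapped both other groups. The group means were 0.543 ± 0.150 FPKM in PF, 0.993 ± 0.284 FPKM in AF and 0.63 ± 0.244 FPKM in AF with MNA (SD, n = 3). AF over PF gave a log2 ratio of 0.87, a 1.83-fold higher mean, and limma gave an unadjusted p of 0.046 and an adjusted p of 0.414. Without PF replicate 3 that ratio was 1.08, and without AF replicate 2 it was 1.00, so that Col1a1 passed the threshold of the methods in both cases. The log2 ratio of AF with MNA over AF was -0.66 (limma, unadjusted p 0.120, adjusted p 0.964), and without AF with MNA replicate 1 it was -1.02, past the threshold. Against PF, AF with MNA gave a log2 ratio of 0.21, which turned to -0.15 without AF with MNA replicate 1. In bulk liver, fewer cells of a type and less RNA per cell cannot be told apart.

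Col1a2 (chr6:4504814-4541544, plus strand) measured 0.58, 0.91 and 0.84 FPKM in PF, 1.08, 0.93 and 0.92 FPKM in AF, and 1.01, 0.83 and 0.71 FPKM in AF with MNA. The AF libraries again lay above all PF libraries, but the nearest pair, at 0.91 and 0.92 FPKM, was almost level. For AF over PF, the log2 ratio was 0.33, with a limma difference of 0.16 in log2(FPKM + 1) and an interval from -0.14 to 0.45 (adjusted p 0.668). For AF with MNA the log2 ratio was -0.20 over AF and 0.13 over PF. The latter ratio turned to -0.042 without PF replicate 1 and to -0.012 without AF with MNA replicate 1. Across the 9 libraries the levels of both type I chains followed each other, with a Pearson r of 0.88 and a Spearman rho of 0.97 on log2(FPKM + 1), given as a description of libraries that share preparation and scaling.

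Col3a1, which encodes type III collagen, a fibrillar collagen laid down together with type I, did not follow Col1a1 between the groups. Col3a1 (chr1:45311538-45349706, plus strand) measured 1.55, 1.67 and 1.94 FPKM in PF, 1.46, 1.13 and 1.28 FPKM in AF, and 1.46, 1.04 and 1.07 FPKM in AF with MNA. All PF libraries lay above all libraries of both alcohol groups, which overlapped each other. Col3a1 had a log2 ratio of -0.42 for AF over PF (limma, unadjusted p 0.0818, adjusted p 0.488), -0.53 for AF with MNA over PF (unadjusted p 0.0348, adjusted p 0.311) and -0.12 for AF with MNA over AF. None of these passed the threshold of the methods under any library left out.

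The ratio of Col1a1 to Col3a1 within a library was 0.252, 0.329 and 0.356 for the PF libraries, 0.904, 0.708 and 0.672 for the AF libraries, and 0.623, 0.5 and 0.430 for the AF with MNA libraries. The groups did not overlap on this ratio, with PF lowest, AF highest and AF with MNA between them. The ratio was chosen after its parts had been seen, so it carries no test. Col1a2 to Col3a1 gave 0.374, 0.545 and 0.433 for the PF libraries, 0.740, 0.823 and 0.719 for the AF libraries, and 0.692, 0.798 and 0.664 for the AF with MNA libraries. There both alcohol groups lay above PF and overlapped each other. Over the 9 libraries, Col1a1 and Col3a1 had a Pearson r of 0.10, and with each group centred on its mean the r was 0.95, so within groups the libraries with more of one had more of the other.

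**Figure D3:**
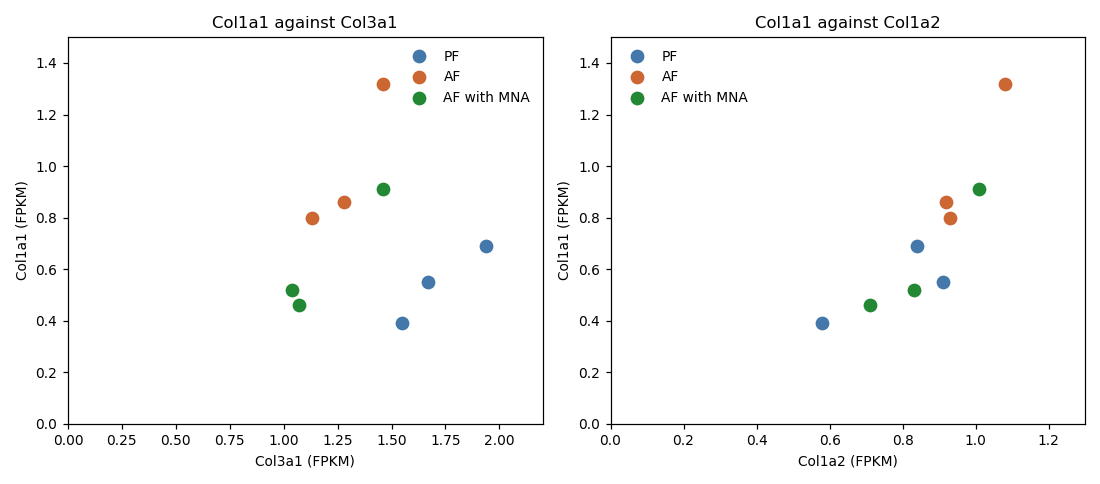
Col1a1 level against Col3a1 (left) and against Col1a2 (right), in FPKM, with 1 point for each of the 9 libraries. On the left the PF points lie below and to the right of the AF points, and on the right all libraries follow a single band (r of 0.88 on the log2 scale).

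Col5a3, a chain of type V collagen, was the gene of the 13 interstitial collagens and partners that had an adjusted p under 0.05 in AF against PF. It measured 7.51, 4.68 and 5.39 FPKM in PF, 0.86, 1.20 and 1.38 FPKM in AF, and 1.15, 2.44 and 1.98 FPKM in AF with MNA. The AF over PF log2 ratio was -2.35 (limma, unadjusted p 7.10e-05, adjusted p 0.0283), and the adjusted p ranged from 0.0168 to 0.310 over the alternative settings. Leaving out any 1 of the 6 libraries gave an adjusted p between 0.056 and 0.103, with the log2 ratio between -2.51 and -2.13. Against PF, AF with MNA was lower as well, with a log2 ratio of -1.66 (limma, adjusted p 0.108), and over AF the log2 ratio was 0.70, short of the threshold. The latter was 0.95 without AF with MNA replicate 1, and without that library and AF replicate 3 it was 1.1 (unadjusted p 0.0157), past the threshold. Of the 8 genes of the list tested in AF against PF, 1 had an unadjusted p under 0.05 and was higher (Col1a1) and 2 were lower, of which Col5a3 passed the threshold of the methods. The median log2 ratio of the list was 0.14, against -0.031 over all tested entries.

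Col4a1 encodes a chain of type IV collagen, the network-forming collagen of basement membranes, and was the member with the smallest p in AF against PF. Col4a1 (chr8:11198423-11312826, minus strand) measured 2.28, 2.88 and 2.96 FPKM in PF, 5.67, 5.37 and 3.91 FPKM in AF, and 3.42, 3.27 and 3.81 FPKM in AF with MNA. The AF with MNA libraries lay between the other groups, above every PF library and below every AF library. The means were 2.71 ± 0.372 FPKM in PF, 4.98 ± 0.942 FPKM in AF and 3.50 ± 0.279 FPKM in AF with MNA (SD, n = 3). Between AF and PF the log2 ratio was 0.88, a 1.84-fold higher mean, with a limma difference of 0.68 ± 0.16 (SE) in log2(FPKM + 1), an unadjusted p of 0.00468 and an adjusted p of 0.202. Without AF replicate 3 the log2 ratio was 1.03, past the threshold of the methods. The log2 ratio of AF with MNA was -0.51 over AF (limma, unadjusted p 0.0373, adjusted p 0.940) and 0.37 over PF (unadjusted p 0.0455, adjusted p 0.335).

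Col4a2, which encodes the partner chain and starts head to head with Col4a1 on the opposite strand, measured 3.27, 3.36 and 2.98 FPKM in PF, 4.99, 4.4 and 4.43 FPKM in AF, and 4.79, 4.86 and 4.03 FPKM in AF with MNA. Both alcohol groups lay above PF and overlapped each other. The Col4a2 log2 ratio was 0.52 for AF over PF (limma, unadjusted p 0.00891, adjusted p 0.258), 0.51 for AF with MNA over PF (unadjusted p 0.00763, adjusted p 0.199) and -0.015 for AF with MNA over AF. That last ratio was 0.047 without AF replicate 1 and 0.067 without AF with MNA replicate 3. Of the 14 basement membrane genes tested in AF against PF, 4 had an unadjusted p under 0.05 and a higher mean (Col4a1, Col4a2, Lama5 and Sparc), 0 had a lower one, and by limma 0 passed the threshold of the methods. The median log2 ratio of the list was 0.23. Summed markers of sinusoidal endothelial cells, which also make type IV collagen, spanned 45.2 to 62.0 FPKM in PF, 58.8 to 81.1 FPKM in AF and 66.7 to 78.1 FPKM in AF with MNA. Of those 11 markers, 10 had a limma difference above 0 in AF against PF, where 5580 of all 12268 entries tested did. Of these 10 markers, 3 had an unadjusted p under 0.05. Against PF, 6 of the 11 had an unadjusted p under 0.05 in AF with MNA, all with a higher mean (median log2 ratio 0.59). The part of these markers in the Col4a1 and Col4a2 results was not tested.

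Dcn encodes decorin, a small leucine-rich proteoglycan that coats collagen fibrils and binds TGF-beta, and it was the highest of the 10 genes in every library. Dcn (chr10:97479609-97518143, plus strand) measured 18.30, 15.95 and 16.31 FPKM in PF, 21.56, 16.27 and 16.51 FPKM in AF, and 25.19, 16.10 and 19.75 FPKM in AF with MNA. The groups overlapped in each comparison, and replicate 1 was the highest library of each group. This gene's log2 ratio was 0.10 for AF over PF, with a limma interval from -0.27 to 0.45 in log2(FPKM + 1), and it was -0.040 without AF replicate 1. It was 0.17 for AF with MNA over AF, which turned to -0.015 without AF with MNA replicate 1, and 0.27 for AF with MNA over PF. The coefficient of variation over the 9 libraries was 17.3%.

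Of 12 small leucine-rich proteoglycans and matrix glycoproteins tested in AF against PF, Prelp alone passed the threshold of the methods. Prelp, which encodes another leucine-rich proteoglycan, measured 2.10, 1.56 and 1.99 FPKM in PF, 11.36, 9.91 and 2.65 FPKM in AF, and 2.38, 1.86 and 1.25 FPKM in AF with MNA. AF replicates 1 and 2 stood far above all other libraries, and AF replicate 3 was just above the highest of them. The log2 ratio was 2.08 for AF over PF (limma, unadjusted p 0.0162, adjusted p 0.318) and -2.12 for AF with MNA over AF (unadjusted p 0.0169, adjusted p 0.940). The first call was lost without AF replicate 1 (1.74) or AF replicate 2 (1.9), and the second without AF replicate 1 (-1.78), AF replicate 2 (-1.94) or AF with MNA replicate 3 (-1.91). The median log2 ratio of the list in AF against PF was 0.10.

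Reln encodes reelin, a large secreted glycoprotein known from neuronal migration that in the liver marks stellate cells. Reln (chr5:21884454-22344702, minus strand) measured 4.76, 6.92 and 6.20 FPKM in PF, 4.93, 3.05 and 4.16 FPKM in AF, and 7.28, 4.69 and 5.50 FPKM in AF with MNA. AF had the lowest mean, but its highest library lay above the lowest library of each other group. Reln had a log2 ratio of -0.56 for AF over PF (limma, unadjusted p 0.0484, adjusted p 0.423), 0.53 for AF with MNA over AF (unadjusted p 0.0734, adjusted p 0.940) and -0.033 for AF with MNA over PF. The last ratio was 0.088 without PF replicate 2, 0.10 without AF with MNA replicate 2 and 0.00604 without AF with MNA replicate 3. A further Reln entry, a single retained-intron transcript within the gene, was listed at 0.70, 0.41 and 1.14 FPKM in PF, 0.37, 0.27 and 0 FPKM in AF, and 0, 0.69 and 0.90 FPKM in AF with MNA. Lrp8, a reelin receptor, was at most 0.03 FPKM in any library. The other receptor, Vldlr, measured 0.16, 0.09 and 0.26 FPKM in PF, 1.00, 0.36 and 0.47 FPKM in AF, and 1.07, 0.53 and 0.55 FPKM in AF with MNA, below the minimum mean for a test in AF against PF.

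Colec11 encodes collectin 11, a soluble lectin that starts the lectin pathway of complement. Colec11 (chr12:28594173-28623377, minus strand) measured 1.56, 6.55 and 3.83 FPKM in PF, 5.23, 4.24 and 5.6 FPKM in AF, and 6.85, 4.43 and 8.17 FPKM in AF with MNA. The AF libraries lay within the PF range, and PF replicate 1 was the lowest library of all. AF over PF gave a log2 ratio of 0.34, with a limma interval from -0.50 to 1.3 in log2(FPKM + 1), and without PF replicate 1 it was -0.047. The log2 ratio of AF with MNA over PF was 0.70 (limma, adjusted p 0.517), and without PF replicate 2 it was 1.27, past the threshold of the methods. Its AF with MNA over AF ratio was 0.37. Only 1 of the 5 transcripts merged in the Colec11 entry is a known one, the others having been assembled from the reads. Its close relative Colec10, which forms heteromers with it, measured 1.88, 6.12 and 6.26 FPKM in PF, 3.70, 4.17 and 5.32 FPKM in AF, and 0.64, 6.14 and 5.87 FPKM in AF with MNA. Masp1, a protease that collectins activate, lay between 6.93 and 9.30 FPKM in all libraries. Of 7 partners of Colec11 in the lectin pathway, 0 had an unadjusted p under 0.05 in AF against PF by limma.

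Quiescent stellate cell markers were mixed between AF and PF. Of 23 tested, 1 had an unadjusted p under 0.05 and a higher mean, and 6 a lower one, with a median log2 ratio of -0.077. Of these, Prelp passed the threshold of the methods upwards, and Bmp10 and Tmem56 passed it downwards. Bmp10, a secreted bone morphogenetic protein, measured 1.11, 1.39 and 0.93 FPKM in PF, 0.04, 0.67 and 0.28 FPKM in AF, and 1.28, 1.26 and 1.41 FPKM in AF with MNA. Bmp10 averaged below the minimum mean for a test in AF. It reached that minimum through PF in AF against PF, and through AF with MNA in AF with MNA against AF. All its AF libraries lay below all others. The Bmp10 log2 ratio was -1.79 for AF over PF (limma, adjusted p 0.265) and 2.00 for AF with MNA over AF (adjusted p 0.893). These 2 Bmp10 ratios were -2.84 and 3.04 without AF replicate 2, the highest of the AF libraries. Without AF replicate 1, the lowest, they were -1.27 and 1.47. Tmem56 measured 21.64, 8.70 and 33.76 FPKM in PF, 5.96, 10.56 and 8.08 FPKM in AF, and 29.27, 35.43 and 21.42 FPKM in AF with MNA. Its log2 ratio was -1.38 for AF over PF (limma, adjusted p 0.423), and leaving out PF replicate 1 or 3 or any AF library ended that call, with ratios from -1.61 to -0.89. Median scaling, either other filter on low values and the library-size covariate ended it as well. Over AF, AF with MNA gave 1.81 (adjusted p 0.313). Cxcl12, a chemokine of stromal cells, measured 11.08, 13.20 and 12.08 FPKM in PF, 5.28, 5.57 and 8.83 FPKM in AF, and 9.05, 30.95 and 23.61 FPKM in AF with MNA. All AF libraries lay below all others, with a log2 ratio of -0.89 for AF over PF (limma, unadjusted p 0.00494, adjusted p 0.205), short of the fold threshold, and 1.69 for AF with MNA over AF (adjusted p 0.940). The latter call was lost without AF replicate 1 (1.56) or AF replicate 2 (1.59). Lrat, the enzyme that makes the retinyl esters of stellate cells, lay between 3.15 and 5.26 FPKM, and the log2 ratio of AF over PF was 0.19.

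Acta2 encodes smooth muscle actin, the classical mark of an activated stellate cell, which vascular smooth muscle carries as well. Acta2 (chr19:34241090-34255590, minus strand) measured 0.91, 0.03 and 1.42 FPKM in PF, 1.13, 0.60 and 0.37 FPKM in AF, and 0.63, 0.96 and 0.84 FPKM in AF with MNA. PF held both the lowest and the highest library of the 9, and the groups overlapped in every comparison. For AF over PF, the log2 ratio was -0.17, with a limma interval from -0.82 to 0.80 in log2(FPKM + 1), and it was 0.57 without PF replicate 3 and 0.14 without AF replicate 3. With a pseudocount of 0.1 the limma difference was 0.34, of the opposite sign to the log2 ratio of the means. The log2 ratio of AF with MNA was 0.21 over AF, turning to -0.095 without AF replicate 3. Over PF it was 0.042, turning to -0.52 without PF replicate 2 and to -0.098 without AF with MNA replicate 2. Tagln, a smooth muscle gene whose product binds actin, lay between 0.19 and 0.74 FPKM, and 0 of 5 vascular smooth muscle genes tested in AF against PF had an unadjusted p under 0.05 by limma.

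Of 18 markers of activated stellate cells tested in AF against PF, 5 had an unadjusted p under 0.05, all with a higher mean (Col1a1, Des, Spp1, Ctgf and Lgals3), and the median log2 ratio of the list was 0.29. Des, which encodes the intermediate filament desmin, measured 0.88, 0.59 and 0.81 FPKM in PF, 1.77, 1.31 and 1.26 FPKM in AF, and 1.21, 0.71 and 1.03 FPKM in AF with MNA. Its log2 ratio of AF over PF was 0.93 (limma, unadjusted p 0.0116, adjusted p 0.288), and without PF replicate 1 (1.05) or AF replicate 3 (1.02) it passed the threshold of the methods. Pdgfrb, the receptor through which stellate cells are driven to divide, gave a log2 ratio of -0.11. Osteopontin, the product of Spp1, is made by bile duct cells too, and summed cholangiocyte markers, which include Spp1, spanned 3.59 to 4.87 FPKM in PF and 5.18 to 9.66 FPKM in AF. Its part in the list was not tested.

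Timp1 (chrX:20870166-20874735, plus strand) was listed at 0 in all 3 PF libraries, at 0, 0.05 and 0 FPKM in AF, and at 0, 0.23 and 0.06 FPKM in AF with MNA. The gene lies within an intron of Syn1 on the opposite strand. The file holds no counts for genes, so a 0 here is a listed value, and no fold was computed. Other inhibitors of the same family were measured at higher levels. Timp3, which stays bound to the matrix, measured 3.06, 4.95 and 5.08 FPKM in PF, 6.21, 6.72 and 8.59 FPKM in AF, and 9.59, 7.66 and 7.80 FPKM in AF with MNA. PF lay below both other groups, with a log2 ratio of 0.72 for AF over PF (limma, unadjusted p 0.0205, adjusted p 0.343) and 0.94 for AF with MNA over PF (unadjusted p 0.00442, adjusted p 0.159). The second ratio passed the threshold of the methods without PF replicate 2 (1.04) or PF replicate 3 (1.06). Timp2 lay between 1.34 and 2.82 FPKM, with a log2 ratio of 0.21 for AF over PF.

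Among the proteases that Timp proteins inhibit, Mmp2 was at most 0.69 FPKM in any library. Mmp14, a membrane-bound protease that cleaves fibrillar collagen, measured 3.09, 2.51 and 3.33 FPKM in PF, 7.68, 4.99 and 3.91 FPKM in AF, and 4.11, 5.15 and 3.29 FPKM in AF with MNA. The AF over PF log2 ratio was 0.89 (limma, unadjusted p 0.0212, adjusted p 0.345), and without AF replicate 3 it was 1.09, past the threshold. Serpine2, a serine protease inhibitor, measured 1.61, 3.00 and 1.42 FPKM in PF, 0.62, 0.56 and 0.25 FPKM in AF, and 0.49, 0.94 and 0.90 FPKM in AF with MNA. Serpine2 averaged under 0.5 FPKM in AF, so in AF against PF it reached the minimum mean through PF. Both alcohol groups lay below PF, with a log2 ratio of -2.08 for AF over PF (limma, unadjusted p 0.00332, adjusted p 0.171) and -1.37 for AF with MNA over PF (adjusted p 0.259). The second call was lost without PF replicate 2 (-0.96) or AF with MNA replicate 1 (-1.13). Of 8 matrix proteases and inhibitors tested in AF against PF, 3 had an unadjusted p under 0.05 and a higher mean and 1 a lower mean, and the median log2 ratio was 0.40. Of 11 enzymes that process and cross-link collagen, 1 had an unadjusted p under 0.05, with a higher mean, and by limma 0 passed the threshold of the methods, with a median log2 ratio of 0.11. Lox, which cross-links collagen, was at most 0.11 FPKM in any library.

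Tgfb1 (chr7:25687002-25705077, plus strand) measured 1.41, 1.21 and 1.37 FPKM in PF, 2.30, 0.98 and 2.08 FPKM in AF, and 1.31, 1.51 and 1.47 FPKM in AF with MNA. AF held both the highest and the lowest libraries, while the other groups lay within a narrow range. The means were 1.33 ± 0.106 FPKM in PF, 1.79 ± 0.707 FPKM in AF and 1.43 ± 0.106 FPKM in AF with MNA (SD, n = 3). Between AF and PF the log2 ratio was 0.43, with a limma interval from -0.28 to 0.73 in log2(FPKM + 1) and an adjusted p of 0.723, and it was 0.72 without AF replicate 2 and 0.20 without AF replicate 1. For AF with MNA it was -0.32 over AF and 0.10 over PF.

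The receptors of TGF-beta were measured at 2.26 to 6.18 FPKM. Tgfbr1, the signalling receptor, gave a log2 ratio of 0.23 for AF over PF and -0.47 for AF with MNA over AF (limma, unadjusted p 0.0326, adjusted p 0.940). Tgfbr2, which binds the ligand, gave 0.49 and -0.049. Of 19 ligands, receptors, activators and SMAD proteins tested in AF against PF, 1 had an unadjusted p under 0.05 and a higher mean (Smad7) and 1 a lower mean (Smad2), with a median log2 ratio of 0.065.

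Of 10 genes known as targets of TGF-beta family signalling, 4 had an unadjusted p under 0.05 and a higher mean in AF than in PF, and 0 a lower one, with a median log2 ratio of 0.78. Col1a1 is one of the 4, and Ctgf, Smad7 and Id1 passed the threshold of the methods. Ctgf, a matricellular protein, measured 1.46, 1.91 and 2.15 FPKM in PF, 3.74, 3.83 and 4.21 FPKM in AF, and 11.93, 2.51 and 6.19 FPKM in AF with MNA. No library of either alcohol group fell within the PF range. Its log2 ratio was 1.09 for AF over PF (limma, unadjusted p 0.000732, adjusted p 0.105), and 0.95 without PF replicate 1, under the threshold. The call was also lost with all 9 libraries in the fit (unadjusted p 0.0728). Its AF with MNA over PF ratio was 1.9 (adjusted p 0.292), a call lost when any PF library, AF with MNA replicate 1 or AF with MNA replicate 3 was left out, with ratios from 1.24 to 2.03.

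Smad7, the inhibitory SMAD that the pathway itself induces, measured 1.29, 2.02 and 2.17 FPKM in PF, 6.11, 1.96 and 4.73 FPKM in AF, and 4.66, 4.75 and 3.06 FPKM in AF with MNA. AF replicate 2 lay within the PF range. This gene's log2 ratio was 1.22 for AF over PF (limma, adjusted p 0.415), and leaving out any library but AF replicate 2 ended the call, with ratios from 0.87 to 1.37. Either other filter on low values and the library-size covariate ended it too. Over PF, AF with MNA gave 1.19 (adjusted p 0.155), and 0.99 without PF replicate 1. Id1, a transcriptional regulator induced by bone morphogenetic proteins, measured 1.06, 1.59 and 3.36 FPKM in PF, 9.71, 2.73 and 5.38 FPKM in AF, and 3.51, 9.72 and 3.51 FPKM in AF with MNA. Its log2 ratio was 1.57 for AF over PF (limma, adjusted p 0.390), and the call was lost without PF replicate 1 or 2 or AF replicate 1 or 3, with ratios from 1.02 to 1.63, while without PF replicate 3 the ratio was 2.16.

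Junb, an AP-1 transcription factor, was listed at 0 in 7 of the 9 libraries and at 10.64 and 6.90 FPKM in AF with MNA replicates 2 and 3. It reached the minimum mean through those 2 libraries, so no fold is given and it is left out of the counts that follow. In AF with MNA against PF, 4 of the 10 other target genes tested had an unadjusted p under 0.05 and passed the threshold of the methods, all with a higher mean, and the median log2 ratio was 0.74. Besides Ctgf and Smad7 these were Id1 (1.48) and Id3 (1.24). The call of Id1 was lost without PF replicate 1, PF replicate 2 or AF with MNA replicate 2, with ratios from 0.81 to 1.34, and the ratio was 2.07 without PF replicate 3. It was also lost with all 9 libraries in the fit, with every entry above 0 tested and with the library-size covariate. The call of Id3 was lost without PF replicate 2, PF replicate 3 or AF with MNA replicate 2, with ratios from 0.80 to 1.11. Against AF, 0 of 10 had an unadjusted p under 0.05 by limma, and the median log2 ratio was -0.023.

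In AF with MNA against AF, of 9 interstitial collagens and partners, 0 had an unadjusted p under 0.05 by limma (median log2 ratio -0.12), and of 14 basement membrane genes 1, Col4a1, did (median 0.00196). Of 24 quiescent stellate cell markers, 3 had an unadjusted p under 0.05 and a higher mean and 1 a lower mean, all 4 past the threshold of the methods, with a median of 0.18. Of 17 activated stellate cell markers, 0 had an unadjusted p under 0.05 by limma (median -0.065). Of 19 TGF-beta ligands, receptors, activators and SMAD proteins, 2 had a lower mean at that p and 0 passed the threshold (median -0.025). An unadjusted p under 0.05 was reached by 1 of 10 collagen processing and cross-linking enzymes, with a higher mean (median -0.068). It was reached by 1 of 11 proteoglycans and matrix glycoproteins, Prelp, with a lower mean (median 0.046). In the list of 12 portal fibroblast and mesothelial markers only 2 genes could be tested, and 1 reached it, also with a lower mean (median -0.51). Of the 5 mesothelium markers 0 were tested, so this count does not describe those cells. Against PF, 2 of 14 basement membrane genes had an unadjusted p under 0.05, Col4a1 and Col4a2, and the median was 0.34. Of 17 activated stellate cell markers in that comparison, Ctgf and Lgals3 passed the threshold with higher means, and Col3a1 had an unadjusted p under 0.05 with a lower mean (median 0.19). Of 8 interstitial collagens and partners, Col3a1 and Col5a3 had an unadjusted p under 0.05, both with lower means, and Col5a3 passed the threshold (median 0.070). Lgals3, which encodes galectin 3, measured 0.56, 0.61 and 0.30 FPKM in PF, against 0.71, 1.28 and 1.15 FPKM in AF with MNA, a log2 ratio of 1.09 (limma, adjusted p 0.279). The PF mean of Lgals3 lay just under 0.5 FPKM, so it reached the minimum mean through AF with MNA. Its call was lost without PF replicate 3, AF with MNA replicate 2 or AF with MNA replicate 3, with ratios from 0.84 to 1.02.

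In the list of mitogens of stellate cells, Lepr and Pdgfa passed the threshold of the methods in AF against PF among 10 genes tested, whose median log2 ratio was 0.11. Lepr, the leptin receptor, measured 0.43, 1.35 and 1.26 FPKM in PF, 16.08, 11.56 and 5.90 FPKM in AF, and 8.52, 1.97 and 1.44 FPKM in AF with MNA. Which cells of the liver carried this RNA was not tested. The log2 ratio was 3.46 for AF over PF (limma, unadjusted p 0.000298, adjusted p 0.0716), with an adjusted p between 0.0435 and 0.331 over the alternatives. Its AF with MNA over AF ratio was -1.49 (adjusted p 0.940), a call lost without AF replicate 1 or 2 or AF with MNA replicate 2 or 3, with ratios from -1.47 to -1.09. Without AF with MNA replicate 1, the highest of its group, the ratio was -2.71. Pdgfa, a ligand of the PDGF receptors, measured 1.05, 1.08 and 1.11 FPKM in PF, 0.37, 0.37 and 0.64 FPKM in AF, and 0.50, 0.62 and 0.24 FPKM in AF with MNA. Pdgfa averaged under 0.5 FPKM in each alcohol group and reached the minimum mean through PF. Both alcohol groups lay below PF, and the log2 ratio was -1.23 for AF over PF (limma, unadjusted p 0.00424, adjusted p 0.193) and -1.25 for AF with MNA over PF (adjusted p 0.169). The latter was -0.95 without AF with MNA replicate 3, under the threshold.

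**Figure D4:**
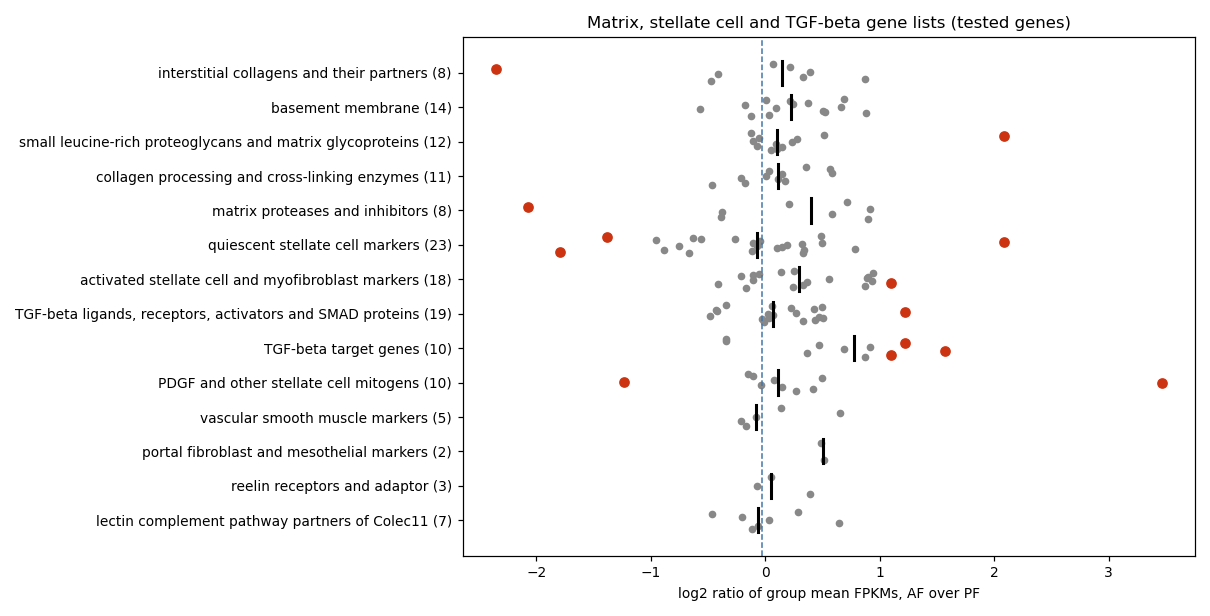
Log2 ratio of the group mean FPKMs, AF over PF, for the tested genes of 14 lists, with the number tested in parentheses. Grey points are genes, red points passed the threshold of the methods, black bars are list medians and the dashed line is the median of all tested entries (-0.031); the TGF-beta target genes have the highest median (0.78) and Col5a3 the lowest ratio (-2.35).

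The labelled tissue matched its markers, with summed hepatocyte markers between 17518 and 24538 FPKM in the 9 libraries. Summed stellate cell markers, which include Reln, Colec11 and Dcn, spanned 68.1 to 76.4 FPKM in PF, 59.5 to 92.2 FPKM in AF and 79 to 104.75 FPKM in AF with MNA, and all 13 were above 0 in at least 1 library. In AF with MNA against PF, 0 of these 13 had an unadjusted p under 0.05 by limma. There 7 of the 13 had a difference above 0, against 5794 of all 12276 entries, and their median log2 ratio was 0.028. Vascular smooth muscle markers summed to 0.68 to 1.19 FPKM over the 9 libraries, and lymphocyte markers to 2.46 to 3.30 FPKM in PF, 0.92 to 1.69 FPKM in AF and 1.46 to 2.32 FPKM in AF with MNA. Assembled lncRNA transcripts inside introns summed to 9433 FPKM in AF replicate 3 and 8934 FPKM in AF with MNA replicate 1, against 2477 to 4937 FPKM in the other 7 libraries. The part of these differences in the members' values was not tested. Without both libraries, 0 members passed in AF with MNA against AF by limma, the log2 ratio of Col1a1 was -1.11 (unadjusted p 0.0593) and that of Dcn turned to -0.078.

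**Figure D5:**
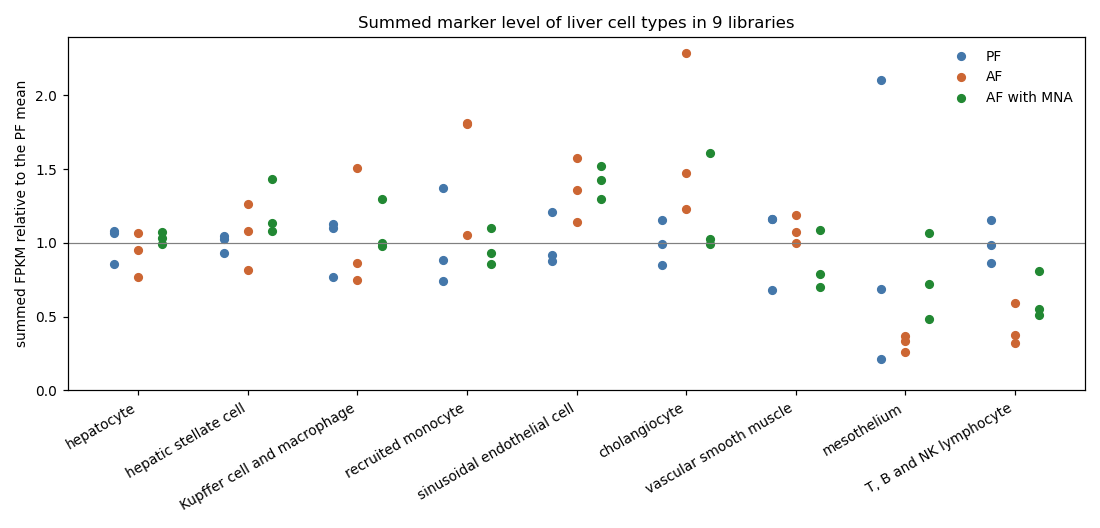
Summed FPKM of the marker genes of 9 cell types in each library, divided by the PF mean of that cell type (grey line at 1). Sinusoidal endothelial sums lie above the PF mean in all AF and AF with MNA libraries, and lymphocyte sums lie below it in all of them.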

How the data were processed

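Liver RNA, depleted of ribosomal RNA, was sequenced in strand-specific paired-end libraries, 3 per group. Gene and lncRNA levels are FPKM values that the authors computed with StringTie from transcripts merged over libraries, deposited for genes with 2 decimals. Their notes list cutadapt 1.9, FastQC, HISAT2, StringTie 1.3.4, edgeR and TopHat without roles, and the genome build is not given in the sources used here. Of 7879 known lncRNA transcripts, 7841 were found in GENCODE M21 for GRCm38, 7708 with the same start and end. The deposited coverage of lncRNA transcripts is mean read coverage per base, not scaled for depth, and was 5.84 to 8.30 per 1 FPKM over the libraries. The deposited circRNA counts are back-splice junction reads, 1588 to 2545 per library. The gene table holds no counts, so precision was judged from the spread between libraries.

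Groups came from the sample labels. On log2(FPKM + 1), limma 3.58.1 (lmFit followed by eBayes, trend on) tested the entries whose mean reached 0.5 FPKM in the 6 libraries of a comparison, two-sided, with Benjamini-Hochberg adjustment over all entries tested. A pseudocount of 1 understates the change of low genes, so fold changes are log2 ratios of group mean FPKMs. The method was tested on simulated data. The members and gene lists were chosen with earlier results of these data known, so their counts carry no test of their own. All members were named, together with up to 4 genes of a list past the threshold by smallest p, any list gene with an adjusted p under 0.05 and fixed partners of members. Genes named beside a count of 5 or fewer were chosen after their values were seen. Alternatives were a pseudocount of 0.1, median scaling, 1 fit of all 9 libraries, eBayes without its trend, a replicate block, other minimum levels, limma's coefficient as fold change, a library-size covariate without moderation, and each library left out. The fit without AF replicate 3 and AF with MNA replicate 1 was chosen after seeing the data. R 4.3.3, Python 3.11.15, pandas 2.3.3, numpy 2.4.6, scipy 1.17.1 and matplotlib 3.10.9 were used.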

Additional observations from a re-analysis of the deposited data

Results flagged for a closer look

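A further table entry named Col3a1 holds 1 assembled transcript and no known one, and it was left out of every comparison. It stood out because its signal lay above the level in PF: it measured 2.80 FPKM in AF with MNA replicate 1 and 0.57 FPKM in AF replicate 3, was listed at 0 in the other 4 libraries of both alcohol groups, and was listed at 0, 0.10 and 0.04 FPKM in PF. AF with MNA replicate 1 and AF replicate 3 are the libraries with the highest summed FPKM of assembled transcripts inside introns (8934 and 9433 FPKM), and whether that bears on the entry was not tested.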

How the results depend on the processing

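The number of members past the threshold of the methods was 0 in each comparison, and under the alternatives other than leaving out 1 library it was 0 in each as well. With 1 library left out it ranged from 0 to 1 in AF against PF, in AF with MNA against AF and in AF with MNA against PF. By limma, 0 members had an adjusted p under 0.05 under any alternative run. The numbers of the libraries were taken as names and not as pairs, since same-numbered libraries deviated together with correlations between -0.08 and 0.06. With the replicate number as a replicate block, 0 members passed in each comparison. Among the list genes named, the block ended the calls of Tmem56 and Smad7 in AF against PF and of Id1 in AF with MNA against PF. The library-size covariate ended those of Prelp in both comparisons with AF, of Smad7 and Id1 in both comparisons with PF, of Tmem56 in AF against PF, of Id3 and Lgals3 in AF with MNA against PF, and of Cxcl12 and Lepr in AF with MNA against AF. Taking limma's coefficient as the fold change ended those of Serpine2, Smad7 and Pdgfa in both comparisons with PF, of Bmp10 in both comparisons with AF, of Ctgf in AF against PF, and of Id3 and Lgals3 in AF with MNA against PF. Calls were gained by Mmp14 (without AF replicate 3) and Des (without PF replicate 1 or AF replicate 3) in AF against PF, by Timp3 (without PF replicate 2 or 3) in AF with MNA against PF, and by Col5a3 in AF with MNA against AF without both libraries rich in intron transcripts.

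Log2 ratios near 0 changed sign when 1 library was left out. In AF against PF, Dcn ranged from -0.040 to 0.18, Colec11 from -0.047 to 0.90 and Acta2 from -0.73 to 0.57 (0.14 without AF replicate 3). In AF with MNA against AF, Dcn ranged from -0.015 to 0.31 (-0.078 without both libraries rich in intron transcripts), Acta2 from -0.095 to 0.74 and Col4a2 from -0.063 to 0.067 (0.047 without AF replicate 1). In AF with MNA against PF, Col1a1 ranged from -0.15 to 0.42, Col1a2 from -0.042 to 0.26 (-0.012 without AF with MNA replicate 1), Reln from -0.23 to 0.10 (0.088 without PF replicate 2, 0.00604 without AF with MNA replicate 3) and Acta2 from -0.52 to 0.79 (-0.098 without AF with MNA replicate 2). The cause was not tested beyond the smaller number of libraries.

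Counts over all entries moved more. The 527 entries past the threshold in AF against PF became 1183 with every entry above 0, 265 with a minimum of 2 FPKM and 335 with the library-size covariate. The 242 in AF with MNA against AF became 675, 81 and 106, 367 without AF replicate 3 and 470 without both libraries rich in intron transcripts. The 477 in AF with MNA against PF became 1104, 228 and 246. The entries with an adjusted p under 0.05 ranged from 0 to 86 in AF against PF, from 0 to 13 in AF with MNA against AF and from 0 to 53 in AF with MNA against PF.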

Other observations

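For each member, the entries with the most similar level over the 9 libraries were sought among 9980 entries with a mean of at least 1 FPKM, by Pearson r of log2(FPKM + 1). These are the highest of many values over 9 libraries that share preparation and groups, and they are a description only. The closest entry was Hecw2 for Col1a1 (r of 0.93), Fmo4 for Col1a2 (0.95), Ptma for Col3a1 (0.96), Fbxo31 for Col4a1 (0.96), Cyp2c39 for Dcn (0.97), Gm26765 for Reln (0.97), 2700016F22Rik for Colec11 (0.94), Tmem50b for Acta2 (0.94), Lpgat1 for Timp1 (0.94) and Ndufb4 for Tgfb1 (0.95). Timp1 itself lay below the minimum mean for a test.

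The lncRNA and circRNA tables held few reads at the members' loci. Gm10475, Gm16110 and Gm19666 at Reln, Gm43921 at Col1a2, and Gm15418 and Gm44716 at Col4a1 were each below 0.80 FPKM in every library, and Gm16110, on the opposite strand of Reln, was the highest of them at 0.797 FPKM in PF replicate 3. The circRNA table held 1 circRNA of a member, formed from 6 exons of Reln at chr5:22128615-22227660, with 1 junction read in AF with MNA replicate 1 and 0 reads in the other libraries, which have 1588 to 2272 junction reads in all.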
